A study of Mus musculus with 2 samples.

Results

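Classical monocytes carrying Ly6c2 and Plac8 transcripts formed a small population in a single-cell RNA sequencing series of mouse kidney tumours: 103 of the 19451 cell barcodes, 62 of them in the library labelled SMYD3 knockdown and 41 in the library labelled WT. A barcode was taken as a member when it held at least 2000 unique molecular identifiers (UMIs, each counting 1 captured RNA molecule), at most 20% mitochondrial UMIs, at least 1 UMI of Csf1r, at least 3 UMIs each of Ly6c2 and Plac8, and at most 3 UMIs of Mki67 and Top2a together. These 5 genes chose the cells, so their levels describe the choice and are no result. The cells set beside the members were all other barcodes with at least 2000 UMIs and at least 1 Csf1r UMI, 5724 in the knockdown library and 5874 in the WT library.

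The series compared immune cells from tumours of RENCA, a BALB/c renal carcinoma line, grown in the kidney of BALB/c mice. The first library came from tumours of RENCA cells with SMYD3, a lysine methyltransferase, knocked down, and the other from control tumours labelled WT. Both were sorted on CD45, a surface protein of blood cells, after enzymatic dissociation, and both were made with the 10x Genomics system. The labels also give an epithelial cell type, which differs from the CD45 sort and from the markers of the cells described here. The knockdown was in the grafted tumour cells, whereas the monocytes belong to the host. The number of mice behind each library, pooling and age are not in the labels. With 1 library for each label there was no replicate: label and library cannot be told apart, no test between them was made, and every interval given is a 95% interval that covers counting error only.

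Classical monocytes are made in the bone marrow, leave it through the chemokine receptor CCR2 and enter inflamed tissue and tumours from the blood. There they can become macrophages or dendritic-like cells, losing Ly6C as they mature, and they are a main source of tumour macrophages. Known features are the surface protein Ly6C, encoded in mouse by the neighbouring genes Ly6c1 and Ly6c2, and a ready response to interferons, which act through a DNA element called the ISRE in the promoters of their target genes.

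The promoters of Ly6c2 and its close relative Ly6c1 are shown because Ly6c2 defines these cells and Ly6c1, which the rule did not use, followed it. Each line gives the 150 bases upstream of the start site from RefSeq, GRCm38.p6, on the minus strand, Ly6c2 at chr15:75111972-75112121 and Ly6c1 at chr15:75048838-75048987. Capitals mark the longest run that the 2 promoters share, 20 bases.
Ly6c2: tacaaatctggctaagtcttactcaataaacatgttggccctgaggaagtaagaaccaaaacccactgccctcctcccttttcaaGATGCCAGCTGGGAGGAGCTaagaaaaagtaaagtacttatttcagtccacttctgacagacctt
Ly6c1: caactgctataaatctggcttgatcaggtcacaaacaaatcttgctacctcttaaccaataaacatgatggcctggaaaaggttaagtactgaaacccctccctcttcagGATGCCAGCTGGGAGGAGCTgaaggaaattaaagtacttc
In a gapped alignment of the 2 promoters, 93 of 116 aligned bases were identical (80.2%), with gaps and unaligned ends left out. This identity is of bases upstream of the start, and likeness of the RNAs was not measured. Reads of close relatives such as these genes can be assigned to the wrong copy, and the labels do not say how the authors' counting treated such reads.

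The promoters of Isg15, a ubiquitin-like protein, and Rsad2, the antiviral enzyme viperin, are shown because interferon response genes stood high in the members. They lie at chr4:156200819-156200968 and chr12:26456453-26456602, both on the minus strand, and capitals mark every match to the core ISRE letters, GAAA followed after any 2 bases by GAAA, on either strand.
Isg15: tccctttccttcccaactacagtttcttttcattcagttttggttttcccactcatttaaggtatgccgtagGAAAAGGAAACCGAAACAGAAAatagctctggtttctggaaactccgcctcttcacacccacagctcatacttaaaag
Rsad2: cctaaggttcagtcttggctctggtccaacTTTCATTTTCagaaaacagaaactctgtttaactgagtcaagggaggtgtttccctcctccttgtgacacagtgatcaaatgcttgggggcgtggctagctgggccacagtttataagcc
Isg15 held 3 overlapping matches on the strand shown, and Rsad2 held 1 on the opposite strand. Counting a gene where any of its starts had a match within 250 bases upstream, 3.46% of 27025 RefSeq genes held one. Of the interferon response genes listed, 19 of 34 held one (55.9%). It was 0 of 11 among the classical monocyte markers, 2 of 22 among the macrophage maturation genes and 1 of 21 among the granule genes. These matches describe the letters and are no evidence of binding.

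Markers that the rule did not use describe the label further. They were chosen with earlier results of these data known, so their levels are no independent check of it. Levels are given as CPM, the UMIs of a gene summed over the cells of a group and scaled to a common total of UMIs, and "members" values are followed by those of the other Csf1r-positive cells. Ifitm6, an interferon-induced membrane protein gene (chr7:141015699-141017924, minus strand, GENCODE vM21 on GRCm38), stood at 158 CPM in knockdown and 224 CPM in WT members against 22.4 and 23.7 CPM. Ms4a4c, a four-span membrane protein gene (chr19:11404770-11427246, plus strand), stood at 657 and 620 CPM against 81.2 and 63.3 CPM. Chil3, which encodes the secreted chitinase-like protein Ym1 (chr3:106147554-106167564, minus strand), stood at 1396 and 1328 CPM against 253 and 170 CPM. All 3 were higher in the members of both libraries, and of the 15 measured classical monocyte markers that the rule did not use, 11 were at least 1.5-fold higher in both, with none lower. The genes of the rule lie at chr15:75108158-75111970 (Ly6c2, minus strand) and chr5:100553725-100572245 (Plac8, minus strand). The markers F13a1, Fn1, Gsr and Cd14 did not pass. For F13a1, the coagulation factor XIII A chain, the levels were 872 and 1194 CPM against 1021 and 1061 CPM.

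Macrophage markers were low in most members. The 15 macrophage markers, among them the complement gene C1qa, were each lower in members. Summed over that list, the lowest, median and highest member held 351, 1164 and 50964 CPM in the knockdown library and 320, 1831 and 38626 CPM in the WT library, against medians of 22166 and 25625 CPM in the other Csf1r-positive cells. T and NK cells of the same libraries, chosen by at least 10 UMIs of their markers and no Csf1r, had medians of 1811 and 2182 CPM on that list. In CPM the median member was thus below the median of these cells. The T and NK cells were shallower, and their highest cells held 10994 and 5801 CPM of C1qa. They are therefore no clean background, and none was measured otherwise. C1qa gave UMIs in 69.4% and 75.6% of members at median depths of 8711 and 8365 UMIs and in 58.9% and 81.9% of T and NK cells at 3893 and 3691 UMIs. A minority stood apart: 7 knockdown and 2 WT members held over 10000 CPM of macrophage markers, of which 4 and 0 were also called doublets, and results are given without them where that matters.

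The neutrophil markers Ly6g, Mmp9, Camp, Ngp and Ltf were at 0 UMIs in the members of both libraries. So were Cd3e and Foxp3 of T cells, Cd79a and Ms4a1 of B cells, and Clec9a and Ccr7 of conventional dendritic cells. These are named because they were at 0, and other markers of the same lists were present. In knockdown members 7 of 10 T cell markers held 25 UMIs in 2 cells, and 3 of 10 NK cell markers held 76 UMIs in 2 cells. In WT members each of these lists held 1 UMI. Of 12 conventional dendritic cell markers 7 and 4 had UMIs, with median cell sums of 1797 and 1543 CPM, beside 1676 and 1612 CPM in the other Csf1r-positive cells. The part of these cells in the results was not tested beyond the alternatives that left them out. The neutrophil list as a whole, which also holds S100a8 and S100a9, had median cell sums of 265 and 435 CPM with maxima of 26039 and 10531 CPM. It had UMIs in 46 knockdown and 35 WT members. All 5 of its measured genes were at least 1.5-fold higher in members than in the other Csf1r-positive cells of both libraries. Of 5 measured non-classical monocyte markers 2 were higher in members and 1 lower. Siglech and Ccr9, markers of plasmacytoid dendritic cells, came from a single member in each library. The members were shallower than the other Csf1r-positive cells: their depth ran from 4429 to 22240 UMIs in the knockdown library and from 4297 to 25242 UMIs in the WT library, against medians of 13088 and 12338.5 UMIs. Of 22 barcode sequences found in both libraries none was a member.

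The rule's thresholds cut a gradient in Ly6c2 and left a gap at Ly6c2 of 0. The members held a median of 4 Ly6c2 UMIs in the knockdown and 5 in the WT library, and 23 and 13 of them were at exactly 3. Just outside, cells with at least 3 Plac8 UMIs and 2 of Ly6c2 numbered 29 and 23, and those with 1 numbered 41 and 38. Ly6c1 stood at 124 and 149 CPM in members with 3 Ly6c2 UMIs, 97.9 and 118 CPM in cells with 2, 47.1 and 55.7 CPM in cells with 1, and 3.68 and 6.12 CPM in the 644 and 677 cells with none. The macrophage list followed the same border, with median cell sums of 1253 and 1920 CPM in cells with 2 Ly6c2 UMIs and 22118 and 37032 CPM in cells with none. By Ly6c1 the cells with 2 Ly6c2 UMIs lay nearer to members with 3 than to cells with none, and the cells with 1 lay between. Reads of the 2 genes can be misassigned, so Ly6c1 is no independent gauge. At 0, 1, 2 and 3 Ly6c2 UMIs Ms4a4c stood at 157, 429, 395 and 566 CPM in the knockdown library. In the WT library it stood at 136, 361, 263 and 447 CPM. Ifitm6 stood at 45.8, 165, 176 and 84.4 CPM, and at 37.2, 136, 175 and 363 CPM. A further 44 and 40 cells met the Ly6c2 and Plac8 thresholds with no Csf1r UMI. Their Chil3 stood at 2157 and 1670 CPM and their C1qa at 116 and 203 CPM.

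**Figure D1:**
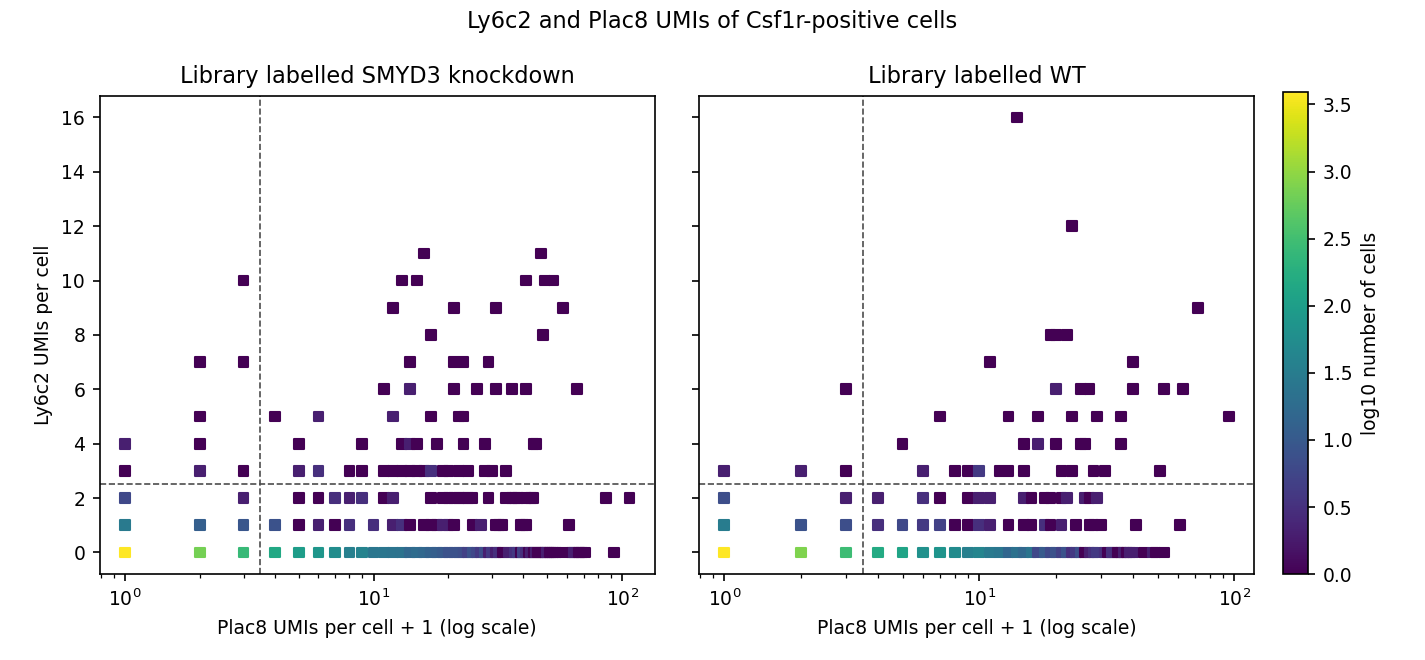
Number of Csf1r-positive cells (colour, log10 scale) by Plac8 UMIs plus 1 (horizontal, log axis) and Ly6c2 UMIs (vertical) in each library, with dashed lines at the 3-UMI thresholds and cycling cells included. Most cells with Plac8 have no Ly6c2 UMI, and the members fill the sparse upper right corner, 62 in the knockdown and 41 in the WT library after the cycling cells are left out.

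Members made up 1.07% (62 of 5786, exact binomial interval 0.823 to 1.37%) of Csf1r-positive cells in the knockdown library and 0.693% (41 of 5915, 0.498 to 0.939%) in the WT library. The difference was 0.378 percentage points (Newcombe interval 0.0385 to 0.729), a ratio of 1.55 (1.03 to 2.35). Of all cells passing the depth filters the shares were 0.875% and 0.586%, with a ratio of 1.49 (0.990 to 2.27). When every cell was thinned to 2000 UMIs and 1 UMI of each gene was asked for, the shares came to 0.810% (23 thinned members in the knockdown library) and 0.801% (24 in the WT library), a difference of 0.00852 points (-0.464 to 0.489). Without the members high in macrophage markers the difference was 0.292 points (-0.0338 to 0.627). The thinned comparison changed the depth and the UMIs asked for together, and its interval also holds the unthinned difference.

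Set beside the other Csf1r-positive cells, members had more RNA of homing receptors, granule and secreted proteins and interferon response genes, and less of genes of mature macrophages. A gene was compared when it had at least 20 UMIs and 10 CPM in either group in both libraries, and it was called higher or lower when the levels, each with 5 CPM added, differed at least 1.5-fold in the same direction in both libraries. Of 7667 genes compared, 363 (4.73%) were higher and 756 (9.86%) lower in members. The filter was uneven: the other cells, 5724 and 5874 against 62 and 41 members, reached 20 UMIs at lower CPM. Genes low in members thus entered more readily than genes low in the other cells. How far this shaped the 2 counts was not tested. With scaling by the median ratio of genes in place of total UMIs the split was 469 higher and 635 lower, and the median log2 difference of all genes was -0.06 in the knockdown and -0.11 in the WT library. Folds below are ratios of CPM. The choice of cells fixed part of this contrast: Mki67 and Top2a had to be low, and 23 of 26 measured cell cycle genes were lower.

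Surface and homing genes stood out first. Ly6c1 stood at 176 CPM in knockdown and 229 CPM in WT members against 2.27 and 2.97 CPM in the other cells, ratios of 77.3 and 77.0, and was seen in 42 of 62 and 32 of 41 members. Misassigned reads of Ly6c2, which chose the cells, may add to this, and their part was not tested. Cd44, a receptor for the matrix sugar hyaluronan, stood at 772 and 721 CPM against 297 and 325 CPM. Ccr2, the receptor for monocyte chemoattractants, stood at 647 and 714 CPM against 278 and 282 CPM, and its lowest, median and highest members were at 0, 627 and 1865 CPM in the knockdown and 39.6, 709 and 2746 CPM in the WT library. These levels were alike in both libraries and above those of the other cells in each.

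Of 18 recruitment and adhesion receptors measured, 6 were higher in members and 1 lower, with a median log2 difference of 0.40. The integrin chains Itgal and Itga4 were among the higher ones, at 79.1 and 81.3 CPM against 30.8 and 26.2 CPM for Itgal and 91.4 and 99.1 CPM against 43.7 and 50.7 CPM for Itga4. Itgal was lower in members, by 0.68 on the log2 scale, when cells with 3 or more UMIs of another type's list were left out, which left 14 and 11 members. Cx3cr1, the fractalkine receptor that marks non-classical monocytes and many tissue macrophages, was the lower one, at 24.6 and 10.2 CPM against 96.5 and 68.3 CPM. Ly6e, another gene of the LY6 family, stood at 652 and 973 CPM against 122 and 108 CPM.

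Granule and secreted products followed. Of 11 measured genes of the neutrophil-like monocyte and granule list, 8 were higher and 2 lower. Lcn2, an iron-binding granule protein (chr2:32384633-32388252, minus strand), stood at 276 and 259 CPM against 12.0 and 11.7 CPM and was found in 34 of 62 and 16 of 41 members. Hp, the haemoglobin-binding plasma protein haptoglobin, stood at 571 and 500 CPM against 114 and 117 CPM. Mmp8, neutrophil collagenase, stood at 345 and 665 CPM against 90.2 and 74.5 CPM. These genes were present in many members but not in all: the median member held 130 and 0 CPM of Lcn2, 502 and 518 CPM of Hp, and 223 and 376 CPM of Mmp8. Lyz2, the myeloid lysozyme, did not differ by the 1.5-fold rule, at 13981 and 13588 CPM against 13687 and 12711 CPM. Saa3, an acute-phase protein, was lower at 345 and 401 CPM against 1336 and 1401 CPM.

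Among the S100 genes 6 of 8 were higher. S100a8, a subunit of calprotectin, stood at 888 and 884 CPM against 125 and 94.4 CPM and was seen in 34 and 26 members. S100a6 stood at 5952 and 6291 CPM against 2457 and 2869 CPM. Because neutrophils carry much S100a8, the neutrophil sums given above move with it, and their part in it was not tested. Of the coagulation and matrix genes 7 of 14 were higher and 1 lower, with Vcan (versican) at 1141 and 1372 CPM against 381 and 383 CPM, F10 (coagulation factor X) at 359 and 241 CPM against 140 and 158 CPM, and Thbs1 (thrombospondin 1) at 466 and 384 CPM against 207 and 180 CPM.

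Interferon response genes were higher as a group. Of 33 measured, 26 were higher in members and none lower, and the median log2 difference was 1.21 in the library where it was smaller, against medians near 0 for all genes. Irf7, the transcription factor that amplifies the interferon response, stood at 216 and 241 CPM against 34.3 and 32.6 CPM, ratios of 6.31 and 7.40. Ifi209, a DNA-sensing family gene, stood at 355 and 315 CPM against 47.2 and 43.9 CPM. Isg15 (chr4:156199424-156200818, minus strand), whose promoter is shown above, stood at 251 and 394 CPM against 56.4 and 49.1 CPM in 31 and 22 members. Zbp1, Slfn4 and Slfn5 had ratios from 3.96 (Slfn5 in the knockdown library) upwards. Not every member carried this programme: the median member held 34.9 CPM of Isg15 in the knockdown and 119 CPM in the WT library and the highest 3742 and 3116 CPM. Rsad2 UMIs were held by 12 and 10 members, with 46.7% and 58.2% of them in 1 cell.

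Fewer receptors and transcription factors differed. Higher in members were Csf3r, the receptor of the granulocyte growth factor, at 38.7 and 63.5 CPM against 21.3 and 20.4 CPM, and Il6ra at 137 and 137 CPM against 62.7 and 67.6 CPM. Lower were Tgfbr2 at 75.6 and 40.6 CPM against 150 and 151 CPM and Il4ra at 93.2 and 78.7 CPM against 168 and 167 CPM. Of 26 lineage transcription factors, 5 were higher and 2 lower. Id1 and Id3, inhibitors of helix-loop-helix factors, Irf5 and Nr4a1 were higher, with Irf5 at 260 and 257 CPM against 102 and 115 CPM. Maf, a factor of resident-type macrophages, was lower at 341 and 455 CPM against 827 and 869 CPM. Among innate receptors Clec4e, which senses mycobacterial glycolipid, stood at 257 and 307 CPM against 124 and 133 CPM, and Cybb, the catalytic subunit of the phagocyte oxidase, at 1208 and 1890 CPM against 734 and 812 CPM.

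Genes of mature macrophages were lower. Of 30 macrophage maturation genes measured, 21 were lower in members and none higher, with a median log2 difference of -1.25. Apoe, a lipid carrier, stood at 2645 and 2006 CPM against 9786 and 10751 CPM. Mrc1, the mannose receptor, stood at 399 and 274 CPM against 1532 and 1576 CPM. Trem2, a lipid-sensing receptor, stood at 98.4 and 78.7 CPM against 293 and 276 CPM. C1qa stood at 889 and 505 CPM against 3980 and 3817 CPM, but the median member held 144 and 138 CPM, since the sums were carried by the few members rich in macrophage markers. Of the single genes with the lowest ratios, Cbr2, Fcrls and Npl, all high in tissue macrophages, stood at 28.1 and 22.9, 19.3 and 22.9, and 36.9 and 25.4 CPM in members and at 217 and 202, 131 and 130, and 206 and 156 CPM in the other cells.

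Antigen presentation split by class. Of 12 MHC class I genes 5 were higher and none lower, chiefly the peptide-loading and proteasome genes: Tap1 stood at 59.8 and 81.3 CPM against 27.3 and 26.3 CPM, and Psmb9 at 160 and 157 CPM against 88.9 and 76.3 CPM. The heavy chain gene H2-K1 did not differ by the rule, at 736 and 932 CPM against 783 and 955 CPM. Of 9 MHC class II genes none was higher and 3 were lower. Cd74, the invariant chain, stood at 1174 and 749 CPM against 1884 and 2001 CPM. None of 18 chemokine genes was higher in members and 6 were lower, among them Ccl12 at 1482 and 1166 CPM against 3518 and 2444 CPM and Ccl8 at 330 and 206 CPM against 1373 and 1737 CPM.

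**Figure D2:**
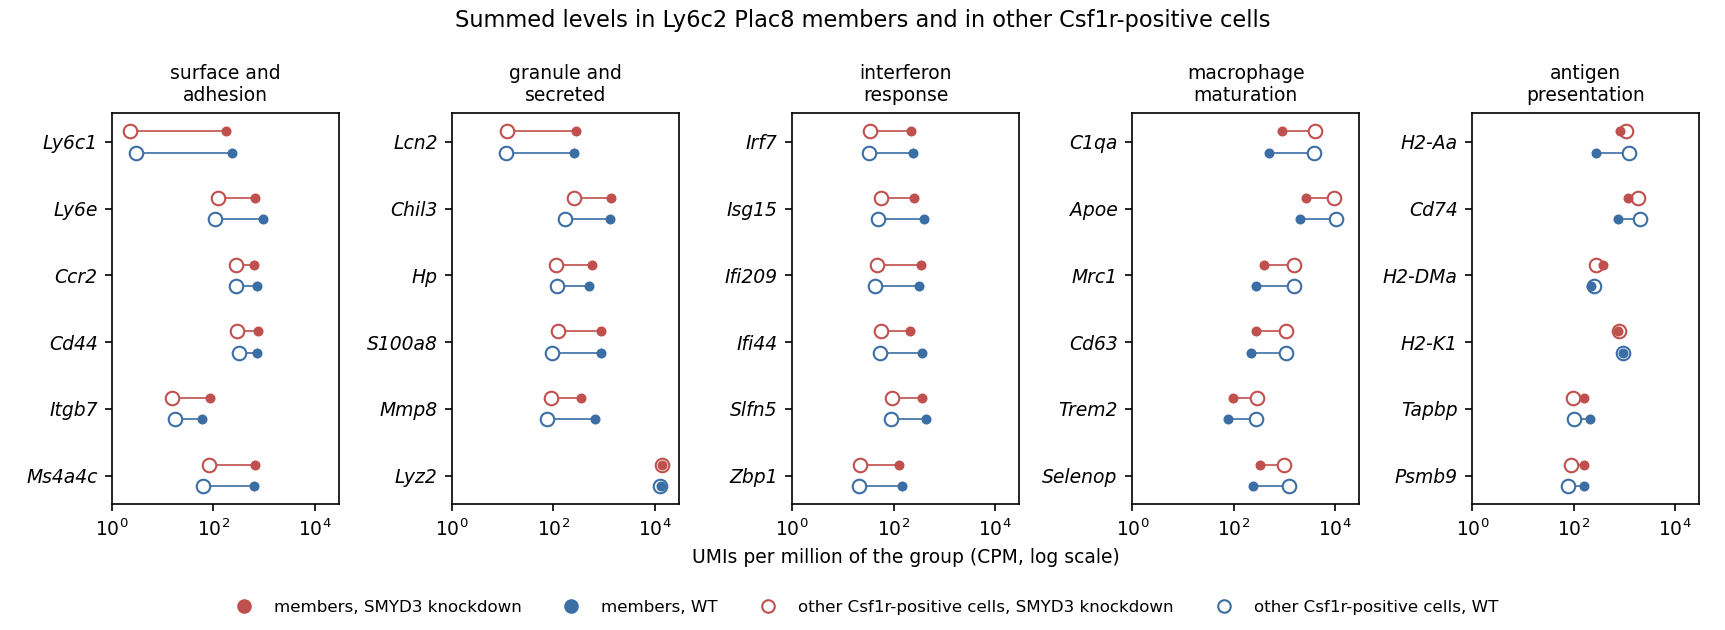
Levels in CPM (log axis) of named genes in members (filled points) and other Csf1r-positive cells (open points), red for the knockdown and blue for the WT library, in 5 groups of genes. Homing, granule and interferon genes are higher in members, such as Ly6c1 at 176 and 229 CPM against 2.27 and 2.97 CPM, and macrophage maturation genes are lower, such as Apoe at 2645 and 2006 CPM against 9786 and 10751 CPM.

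The members were not uniform. Their summed level of hypoxia and glycolysis genes lay in a low and a high range with an empty stretch between them in each library. In the knockdown library 41 members lay between 2507 and 9974 CPM and 21 between 13273 and 28899 CPM. In the WT library 26 lay between 1780 and 7970 CPM and 15 between 12137 and 22755 CPM. The dividing value of 11000 CPM was chosen after these values were seen, so the contrast between the ranges is a description. The high range held 33.9% (22.3 to 47.0%) of knockdown and 36.6% (22.1 to 53.1%) of WT members. Among the other Csf1r-positive cells, 27.0% and 20.8% lay above the same value. Within the stretches empty of members lay 596 knockdown and 805 WT cells of that group, so those cells showed no such gap. Depth in the high and low range had medians of 8820 and 8602 UMIs in the knockdown and 9388 and 7810.5 UMIs in the WT library, and the median mitochondrial share was 0.778% and 1.01% and 0.861% and 1.07%.

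Between the ranges 2118 genes had enough UMIs in both libraries to be compared, and 196 (9.25%) were higher and 263 (12.4%) lower in the high range. Scaling by the median ratio of genes gave 262 higher and 156 lower, and the median log2 difference of all genes was -0.22 and -0.15. The list that defined the ranges had 18 of 19 genes higher, for example Ldha, which makes lactate, at 1996 against 499 CPM in the knockdown and 1839 against 410 CPM in the WT library. The following lists did not define them.

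Granule genes were lower in the glycolysis-high members: 7 of 9 measured, none higher, with median log2 differences of -1.84 and -1.62. Chil3 stood at 620 CPM in the high and 1786 CPM in the low range of the knockdown library and at 295 and 2031 CPM in the WT library. Lcn2 stood at 52.5 and 388 CPM, and at 87.9 and 375 CPM. Ifitm6, Mgst1, Hp and C3 were lower in the same way. On thinned counts, Spearman's rho between the hypoxia and granule sums was -0.52 over the 62 knockdown and -0.69 over the 41 WT members. Lyz2, named above with the granule genes, stood at 13981 and 13588 CPM over all members, above each single granule gene given here. Its weight in the granule sums was not tested. Cells of 1 library share its depth and free RNA, and no p is given.

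**Figure D3:**
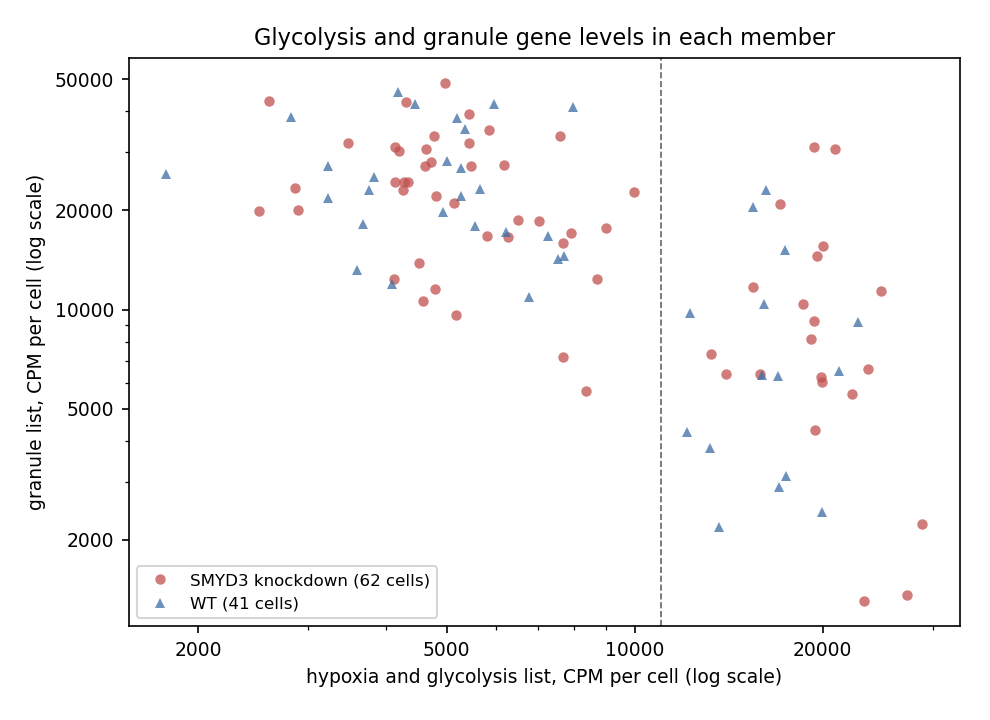
Summed CPM of hypoxia and glycolysis genes (horizontal) and of granule genes (vertical) for each member, log axes, with circles for the knockdown and triangles for the WT library and a dashed line at 11000 CPM. Members to the right of the line have lower granule sums, with medians of 7350 against 23127 CPM in the knockdown and 6326 against 23155 CPM in the WT library. A large share of these sums may be Lyz2, at 13981 and 13588 CPM over all members, which was not tested.

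Effector genes of tumour macrophages were higher in the high range, 10 of 14 measured with 1 lower. Spp1, the matrix protein osteopontin, stood at 5211 CPM in the high and 510 CPM in the low range of the knockdown library and at 5944 and 593 CPM in the WT library. Arg1, the arginine-degrading enzyme, stood at 657 and 50.2 CPM and at 1645 and 4.27 CPM, with 65.0% of the WT members' UMIs in 1 cell. Hmox1, haem oxygenase, stood at 2821 and 188 CPM and at 1274 and 226 CPM, with 56.9% of the knockdown members' UMIs in 1 cell. Hilpda, the hypoxia-inducible lipid droplet-associated protein, stood at 1180 and 60.8 CPM and at 1100 and 34.1 CPM. By its name it is close to the genes that defined the ranges, so it is no separate trait. Mmp13, a collagenase, was nearly confined to the high range, at 163 against 2.64 CPM in the knockdown library and 188 CPM against 0 UMIs in the WT library.

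Interferon response genes were also higher in the high range: 15 of 20 measured, none lower, with median log2 differences of 1.59 and 1.18. Isg15 stood at 620 against 66.0 CPM and at 647 against 222 CPM, and Irf7 at 436 against 106 CPM and at 389 against 141 CPM. With 5 UMIs of Ly6c2 and of Plac8 required, 4 of 13 measured were higher, and without cells holding 3 UMIs of another type's list 0 of 11 were. Of 13 chemokine genes, 7 were higher and none lower, with Ccl2, the ligand of CCR2, at 4402 against 1928 CPM and 7683 against 2214 CPM. MHC class II genes had none of 6 higher or lower in both libraries. The macrophage marker sum did not separate the ranges, at medians of 1196 and 1162 CPM and of 1837 and 1826 CPM.

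In UMIs summed over the members, the libraries differed in Cebpb and in some or most MHC class II, chemokine, interferon and cholesterol synthesis genes. For the interferon genes this held for a minority of those measured, and the median member did not follow the sums. The genes that mark the cells hardly differed. Of 4267 genes compared, 418 (9.8%) were at least 1.5-fold higher and 269 (6.3%) lower in the knockdown library. The median log2 difference of all genes was 0.05. Without the 9 members rich in macrophage markers the counts were 390 and 282, of which 272 and 205 were the same genes. None of the 15 measured classical monocyte markers outside the rule passed 1.5-fold: the knockdown to WT ratio was 0.708 for Ifitm6 (0.522 to 0.961), 1.06 for Ms4a4c, 1.05 for Chil3 and 0.906 for Ccr2.

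The gene named by the knockdown, Smyd3, had 6 UMIs in knockdown and 3 in WT members, a ratio of 1.38 (0.296 to 8.55), too few to tell a difference, and these host cells were not the target. Of the other genes in the study's title, Cd47, the ligand that restrains phagocytosis, stood at 415 and 422 CPM, a ratio of 0.984 (0.803 to 1.21). Its receptor Sirpa stood at 381 and 310 CPM, a ratio of 1.23 (0.982 to 1.55). Srebf1, which encodes SREBP1, had 18 and 12 UMIs, a ratio of 1.04 (0.473 to 2.36). All 4 intervals include 1.

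RNA of pancreatic acinar cells marked the knockdown library in members, in the other Csf1r-positive cells and in T and NK cells. All 8 measured acinar genes were higher in knockdown members. They passed the UMI filter through that library, since WT members held UMIs of only 1 of the 13 acinar genes, so the direction of this count was fixed by the filter. Ctrb1, chymotrypsinogen, had 114 UMIs in 37 of 62 knockdown members and none in WT members. The acinar list had UMIs in 59 of 62 knockdown and 1 of 41 WT members, with median sums of 369 and 0 CPM. The medians were 260 and 0 CPM in the other Csf1r-positive cells and 651 and 0 CPM in T and NK cells. This RNA moves with the label in each comparison below, and its part in them was not tested. The macrophage marker sum over the members was 6280 CPM in the knockdown and 5072 CPM in the WT library.

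Cebpb, a transcription factor of myeloid differentiation and of monocyte survival (chr2:167688915-167690418, plus strand), stood at 411 CPM in knockdown and 1402 CPM in WT members, a ratio of 0.293 (0.251 to 0.342). The lowest, median and highest members held 0, 359 and 1280 CPM in the knockdown and 147, 1265 and 4261 CPM in the WT library. The ranges overlapped, but the knockdown maximum lay close to the WT median. Every WT member and 59 of 62 knockdown members had a UMI. Under the alternatives run the log2 difference lay between -2.06 and -1.74. The difference was not particular to the members: the other Csf1r-positive cells stood at 245 and 990 CPM, a ratio of 0.247. T and NK cells without Csf1r stood at 59.4 and 189 CPM, with UMIs in 14.3% and 38.2% of cells. The difference thus ran the same way outside the Csf1r-positive cells. Whether the T and NK cells' Cebpb was their own RNA was not tested.

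MHC class II genes were higher in knockdown members, 7 of 8 measured with none lower, and a median log2 difference of 1.40. H2-Aa, an alpha chain (chr17:34282744-34287823, minus strand), stood at 833 and 274 CPM, a ratio of 3.04 (2.46 to 3.78). H2-Eb1, a beta chain, stood at 330 and 81.3 CPM, a ratio of 4.07 (2.78 to 6.11). H2-DMb1, which edits the bound peptide, stood at 114 and 20.3 CPM, a ratio of 5.62 (2.69 to 13.6). The sums came from a minority of cells. H2-Aa UMIs were found in 20 of 62 knockdown and 15 of 41 WT members, the median member held none, and the highest held 11704 and 2203 CPM. The share of cells with an H2-Aa UMI was thus 32.3% and 36.6%, beside 27.7% and 29.2% of T and NK cells at their lower depth. At 2000 UMIs a cell it was 17.7% and 12.2% of members and 20.5% and 20.8% of T and NK cells. Those T and NK cells held H2-Aa at 2465 and 1571 CPM, above the members' level, so they do not serve as a background for it. H2-DMa, which 49 and 29 members carried, had a ratio of 1.70 (1.32 to 2.21).

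Without the 9 members rich in macrophage markers the class II count was again 7 of 8, and without the member with most UMIs of each gene in each library it was 8 of 8. The other Csf1r-positive cells had 1084 and 1239 CPM of H2-Aa and 568 and 630 CPM of H2-Eb1, and whether the members differ from them in this contrast was not tested. Cells with at least 3 Ly6c2 but fewer than 3 Plac8 UMIs, 11 and 6 in number, went the opposite way. They held 9.61 CPM of H2-Aa in the knockdown and 2774 CPM in the WT library, and 9.61 and 1106 CPM of H2-Eb1. The conventional dendritic marker sum of the median member was 1797 and 1543 CPM, chiefly Cst3, and its highest was 5576 and 2755 CPM. Its part in the class II levels was not tested. Tmem176a and Tmem176b, membrane proteins of dendritic-like cells, were also higher, at 49.2 and 12.7 CPM and 47.5 and 15.2 CPM.

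Chemokine genes were mostly lower in knockdown members, 9 of 17 measured with 2 higher and a median log2 difference of -0.67. Ccl7, a CCR2 ligand (chr11:82045712-82047525, plus strand), stood at 780 and 2200 CPM, a ratio of 0.355 (0.316 to 0.398), and was found in 34 and 29 members. Ccl2 stood at 2756 and 4427 CPM, a ratio of 0.623 (0.581 to 0.667), with median members at 935 and 1956 CPM. Cxcl2, a neutrophil attractant, stood at 1526 and 3015 CPM with a ratio of 0.506. Ccl6 and Ccl9 had ratios of 0.618 and 0.626 and were found in nearly every member. In the other Csf1r-positive cells Ccl2 and Ccl7 were not lower in the knockdown library, at 4032 and 3038 CPM and at 2169 and 1840 CPM. Among these, the 11 and 6 cells that met the Ly6c2 but not the Plac8 threshold held 10330 and 2117 CPM of Ccl2. Their Ccl7 stood at 2220 and 529 CPM. The 2 genes higher in knockdown members rested on few cells, Ccl5 with 77.6% and Ccl8 with 52.7% of knockdown UMIs in 1 cell. Ccl8 was lower in the knockdown library without that cell. Without the members rich in macrophage markers the count was 11 of 15 lower and none higher.

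**Figure D4:**
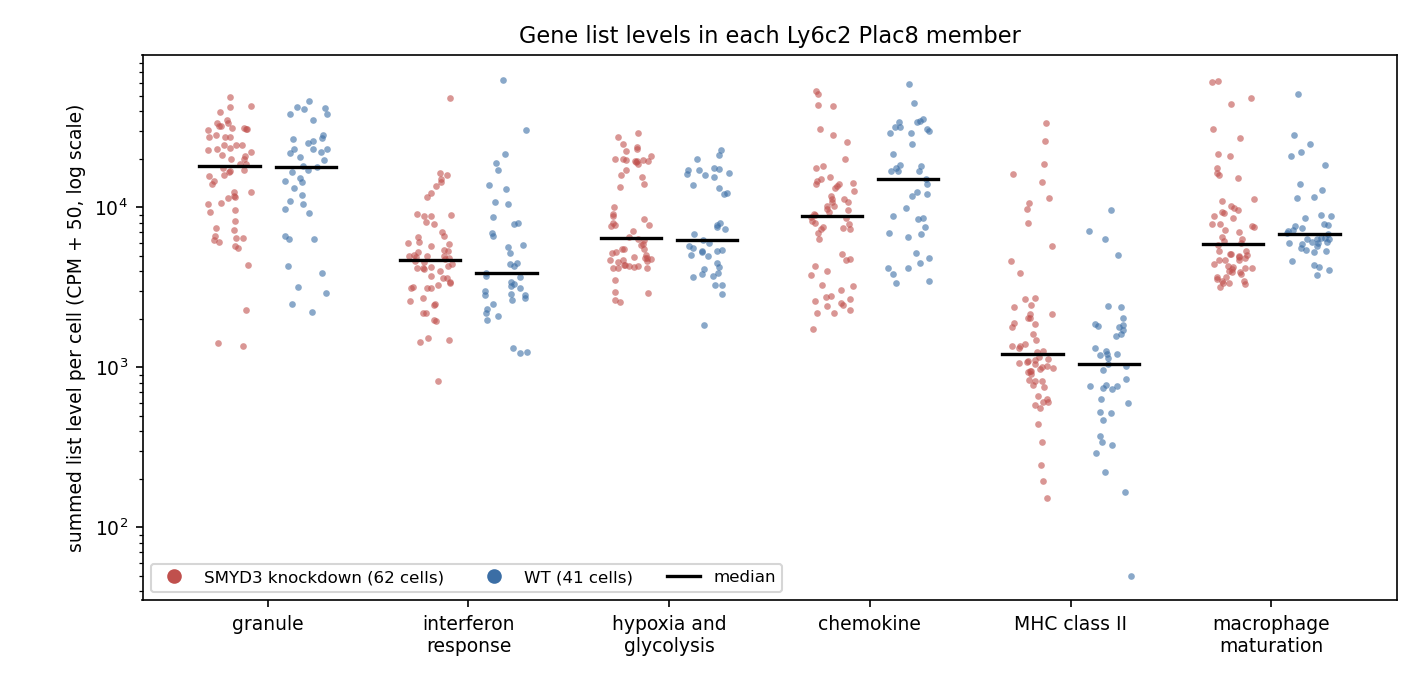
Summed level of 6 gene lists in each member (CPM plus 50, log axis), with 1 point per cell coloured by library and bars at medians. The chemokine sum has a median of 8774 CPM in knockdown and 14955 CPM in WT members, the class II medians are 1159 and 994 CPM with the highest cells at 33581 and 9627 CPM, and every list overlaps widely between the libraries.

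Related inflammatory genes leaned the same way, with 6 of 19 lower and 1 higher. Tnfaip3, an inhibitor of NF-kappaB, stood at 77.3 and 145 CPM, a ratio of 0.534 (0.352 to 0.806). Nfkbia, another inhibitor, stood at 837 and 1176 CPM and stayed within 1.5-fold. Each member weighing the same, 10 of 19 were lower. Dusp2, a phosphatase of MAP kinases, had the lowest level relative to WT among the 10 lower genes chosen by size, at 12.3 and 76.2 CPM with a ratio of 0.161 (0.0599 to 0.375). Cybb stood at 1208 and 1890 CPM, a ratio of 0.639 (0.575 to 0.710), and Mmp8 at 345 and 665 CPM, a ratio of 0.518.

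Interferon response genes, high in members of both libraries, were lower in the knockdown library for 12 of 33 measured and higher for none, with a median log2 difference of -0.32. Isg15 stood at 251 and 394 CPM, a ratio of 0.638 (0.505 to 0.807). Ifi44 stood at 211 and 358 CPM with a ratio of 0.589, and Epsti1, another interferon-induced gene, at 49.2 and 163 CPM with a ratio of 0.303 (0.187 to 0.479). Irf7, Ifi204 and Ifi209 had ratios of 0.896, 0.872 and 1.13. The median member did not follow the sums: the list summed to 4640 CPM in the median knockdown and 3843 CPM in the median WT member, with highest cells at 48299 and 62482 CPM. With 5 UMIs of Ly6c2 and Plac8 required, 6 of 23 were lower and 2 higher, and the direction of Rsad2 turned.

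Cholesterol synthesis and SREBP target genes were higher in knockdown members for 8 of 14 measured and lower for none, with a median log2 difference of 0.84. The rest of the 26 genes listed had too few UMIs in members of either library. A gene of few UMIs entered through the library where it was higher, more readily the knockdown one, which tilts this count and median upwards. Hmgcs1, which makes the precursor of mevalonate, stood at 137 and 63.5 CPM, a ratio of 2.16 (1.36 to 3.54), in 36 and 18 members. Stard4, a cholesterol transporter, stood at 49.2 and 7.62 CPM, a ratio of 6.46 (2.00 to 33.2), in 19 and 3 members. Insig1 and Cyp51 had ratios of 1.89 and 1.86. Srebf2, which encodes the main SREBP of cholesterol synthesis, stayed within 1.5-fold at a ratio of 1.10. Counts were low throughout, and with 5 UMIs of Ly6c2 and Plac8 required 3 of 7 were higher. Without members rich in macrophage markers it was again 8 of 14. Without cells holding 3 UMIs of another type's list, which left 14 and 11 members, Cyp51 and Insig1 were lower in the knockdown library.

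Some further genes differed with UMIs in many knockdown members, but Atf6 and Lyl1 were seen in only 6 and 3 WT members. Plaur, the urokinase receptor, stood at 719 and 404 CPM, a ratio of 1.78 (1.48 to 2.15), in 58 of 62 and 35 of 41 members. Myd88, the adaptor of Toll-like receptors, stood at 121 and 63.5 CPM, a ratio of 1.91 (1.19 to 3.15), in 41 and 18 members. Atf6, a sensor of protein folding stress, stood at 75.6 and 17.8 CPM, a ratio of 4.25 (1.90 to 11.2), in 28 and 6 members, beside 30.7 and 33.2 CPM in the other Csf1r-positive cells. Lyl1, a blood transcription factor, had 30 and 3 UMIs in 20 and 3 members. Others rested on 1 cell: 87.2% of the 39 Ccl17 UMIs and 87.9% of the 33 Slc40a1 UMIs in knockdown members were in a single cell, as were 50.3% of Plau UMIs. Plau was lower in the knockdown library among the 14 and 11 members left without cells of another type's list.

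Macrophage maturation genes show how a few cells set a direction. Over all members 6 of 26 were higher and 3 lower in the knockdown library, with a median log2 difference of 0.23. Without the members rich in macrophage markers none of 22 was higher and 10 were lower, with a median of -0.55. C1qa, at 889 and 505 CPM over all members, was lower in the knockdown library without them, by 0.49 on the log2 scale.

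**Figure D5:**
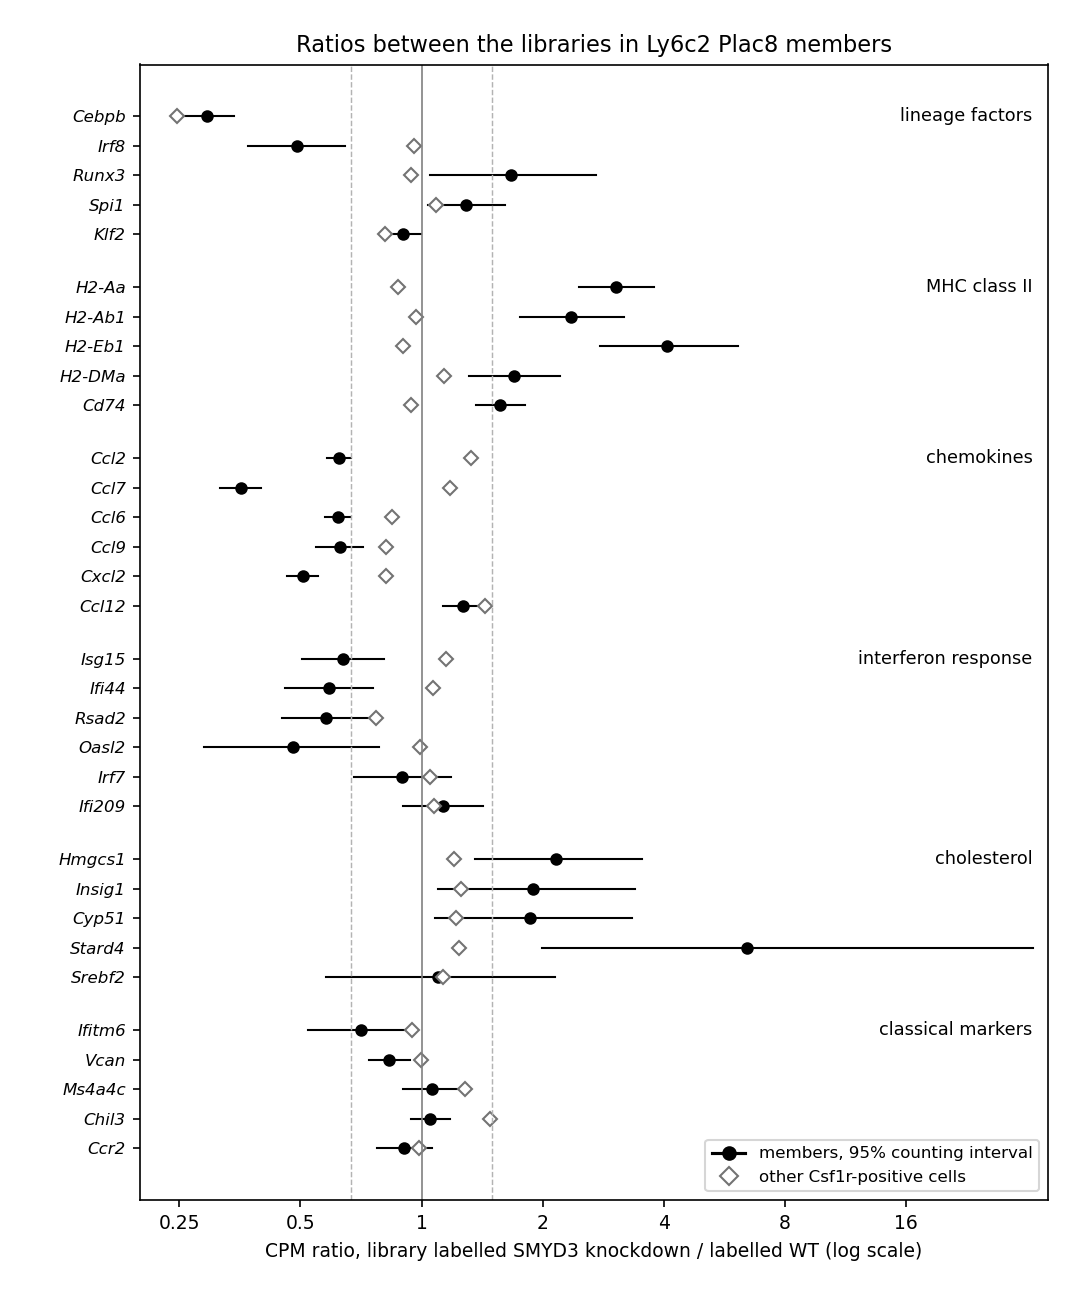
Ratio of knockdown to WT levels (CPM, log axis) in members for named genes of 6 groups (filled points, with 95% counting intervals), and the same ratio in other Csf1r-positive cells as diamonds. Dashed lines mark 1.5-fold either way. Cebpb is low in both kinds of cell (0.293 and 0.247), while class II genes lie above the upper line in members and Ms4a4c, Chil3 and Ccr2 lie near 1 (1.06, 1.05 and 0.906).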

How the data were processed

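The authors deposited 1 table of counts, with UMIs of 55357 genes in 19451 barcodes, made with Cell Ranger 7.1.0 per the file header, on mm10 per the submitters' processing notes. No label or header says whether depth was equalised between the libraries. Barcode endings gave each cell's library through the deposited barcode table. The knockdown library held 95803321 UMIs and the WT library 91523767, of which members held 568928 and 393720, so genes with few UMIs in members have wide intervals.

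UMIs were summed per library and cell group, scaled to CPM and compared as log2(CPM + 5) with a 1.5-fold rule. Genes needed 20 UMIs and 10 CPM in the higher group. With 1 library per label no model across samples could be made. Intervals at 95% are exact binomial for shares, Newcombe for their difference and conditional binomial for ratios. Members, markers and the 24 functional and 13 marker gene lists (536 of 537 symbols found) were chosen with earlier results of these data known. Genes named from a contrast were the 15 highest and 15 lowest (members against other cells) or 10 and 10 (knockdown against WT) with at least 30 UMIs and 50 CPM, without mitochondrial, ribosomal, immunoglobulin, sex-linked, unnamed and other cell types' genes, and up to 6 of each list. Genes named for having many or few cells behind them, or as exceptions, were chosen after their values were seen. Doublets were kept. The highest Scrublet scores (scanpy 1.11.5), 0.8% per 1000 cells, were removed as an alternative. Other alternatives changed scaling, cell weights, pseudocount, gene filter, depth and the cells kept. Symbols listed more than once (79) used the entry listed first. The calculations were tested on simulated data.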

Additional observations from a re-analysis of the deposited data

Results flagged for a closer look

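For 2 genes the knockdown and WT libraries differed in opposite directions in members and in the other Csf1r-positive cells, beyond 1.5-fold in each. With 1 library for each label the difference between the kinds of cell was not tested. Arg1 was lower in knockdown members by a log2 difference of -1.38 and higher in the other cells by 0.60, with 65.0% of the WT members' Arg1 UMIs in 1 cell. It was found in 22 of 62 knockdown and 7 of 41 WT members. Cxcl3, a neutrophil-attracting chemokine, had a log2 difference of -1.63 in members and 0.75 in the other cells, with 76.6% of the WT members' UMIs in 1 cell.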

How the results depend on the processing

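No paired analysis was possible because each label had 1 library, so the groups share fewer than 2 replicate numbers. The 9 alternatives of the plan were run for each contrast, and 2 more, chosen after the data were seen, left out members rich in macrophage markers or members with 10 lymphoid or plasmacytoid UMIs. Leaving out each gene's highest member, also added, was run only between the libraries. Genes higher in knockdown members numbered 1922 with no gene filter, 32 with a filter of 100 UMIs and 50 CPM, 154 on thinned cells and 156 without cells holding 3 UMIs of another type's list. Lower ones numbered 2121, 37, 101 and 153. Against the other Csf1r-positive cells the stricter filter left 155 higher and 263 lower. Between glycolysis ranges the higher genes numbered 779 with no filter, 54 with the stricter one, 59 thinned, 119 with 5 UMIs of Ly6c2 and Plac8, and 81 without cells of another type's list. The lower ones numbered 1753, 41, 54, 163 and 25, and 156 with scaling by the median ratio. Filters, thinning and left-out cells changed how many genes or cells were tested. The cause of the change with scaling was not tested. The share difference was 0.00852 points on thinned cells with 1 UMI of each gene asked for. Of 66 named genes past 1.5-fold between the libraries, 48 to 66 kept that side under each alternative, of 116 between members and other cells 84 to 116, and of 83 between glycolysis ranges 56 to 83.

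These directions turned, as log2 differences between knockdown and WT members. Without cells of another type's list, which left 14 and 11 members, they were Arg1 0.40, C1qa -0.0721, Ccl8 -0.67, Cxcl3 5.41, Cyp51 -0.65, Insig1 -0.73, Plau -1.25, Ptgs2 0.21 and S100a9 -0.15. With 5 UMIs required they were C1qa -0.00125, Cxcl3 0.0132, Ptgs2 0.16, Rsad2 0.48 and S100a9 -1.10. Without doublets C1qa was -0.59. Without members rich in macrophage markers C1qa was -0.49, Ccl8 -0.48 and Hmox1 -0.45. Ccl8 was -0.26 without lymphoid or plasmacytoid cells, and without the highest member Ccl8 was -0.19 and Hmox1 -0.0646. On thinned cells Hmox1 was -0.48, Il1r2 -0.0109, Lilra6 -0.0111, Oas3 0.90 and Runx3 -0.32. Without cells of another type's list, Itgal was -0.68 and Lbr -0.22 between members and other cells, and F13a1 was 0.50 and Ms4a4c -0.33 between glycolysis ranges. The cause of these turns was not tested. Members' depth limits what could be seen, and genes of few UMIs have wide intervals.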
